A study of Drosophila melanogaster with 3 samples.

Results

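The genes described here are a group named as basic helix-loop-helix (bHLH) partners and inhibitors of Nautilus (Nau), the MyoD-family factor of Drosophila melanogaster. The region lists do not test such pairing or inhibition. The genes are daughterless (da), extramacrochaetae (emc), hairy (hry) and twist (twi), 4 of the 13945 protein-coding genes on 6 chromosome arms. They were chosen by name, with earlier results of these data known. Each was given a window of its gene body and 10 kb either side (Ensembl annotation BDGP6.54 of dm6, 1-based positions), and 9 of the study's 3767 summits lay in these windows. The data are from chromatin immunoprecipitation with an antibody to GFP, in 1 group of 3 biological replicates of whole embryos. The embryos were of both sexes, were collected between 4 and 24 h, and came from a transgenic line of the strain nau-GFP that stably expresses nau with a C-terminal GFP. Whole embryos pool every tissue, so the cells in which a region was bound are unknown, and the region lists hold no expression values against which to check cell types. There was no second condition, so places in the genome are compared and no test between groups was made.

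Many bHLH factors bind the E-box CANNTG as dimers. Da is the fly's E protein, the broadly present partner of tissue-restricted bHLH factors. Emc is an Id-type protein that has the helix-loop-helix but lacks the basic region, so that dimers with it do not bind DNA. Hry is a repressor that recruits the corepressor Groucho and is known as a pair-rule gene product. Twi specifies the mesoderm in the early embryo and can dimerise with Da or with itself.

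All 4 genes had a summit in their windows, 2 at da, 3 at emc, 3 at hry and 1 at twi. These are summits of the IDR list, which the authors thresholded by irreproducible discovery rate (IDR). That list equalled the 3767 strongest pooled regions, so a summit in it need not be strong in every replicate. Of all protein-coding genes, 43.4% had a summit in the window, 23.1% had at least 2 and 12.0% had at least 3. With 4 genes this count says little beyond that background. With 5 kb on either side all 4 still had a summit, beside 31.1% of all genes, and the same held for the gene body with 2 kb upstream, beside 17.9%. In gene bodies alone emc, hry and twi had 1 each and da had 0, beside 10.1% of all genes with a summit. In the last pair of windows the count at twi holds on its longest transcript only and is 0 on its shorter ones. Among the stronger 1883 regions da and emc had 1 summit, hry 2 and twi 0 (30.3% of all genes with a summit), and among the 5000 strongest pooled regions all 4 had one (49.1%). The genes differed in the transcription start site (TSS) nearest to their summits. All 3 summits at hry and 2 of the 3 at emc were nearest to the gene itself, while the summits at da and twi and the strongest at emc were nearest to another gene. The windows of hry, emc, da and twi held the TSSs of 0, 1, 6 and 7 other protein-coding genes. At hry the nearest other TSS lay far outside the window, so its summits could only be nearest to hry. A summit nearest to the gene's own TSS, as emc and hry had, occurred at 14.8% of all protein-coding genes. Of the 6055 genes with a summit in the window, 65.9% had none that was nearest to their own TSS, which is the arrangement at da and twi.

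**Figure D1:**
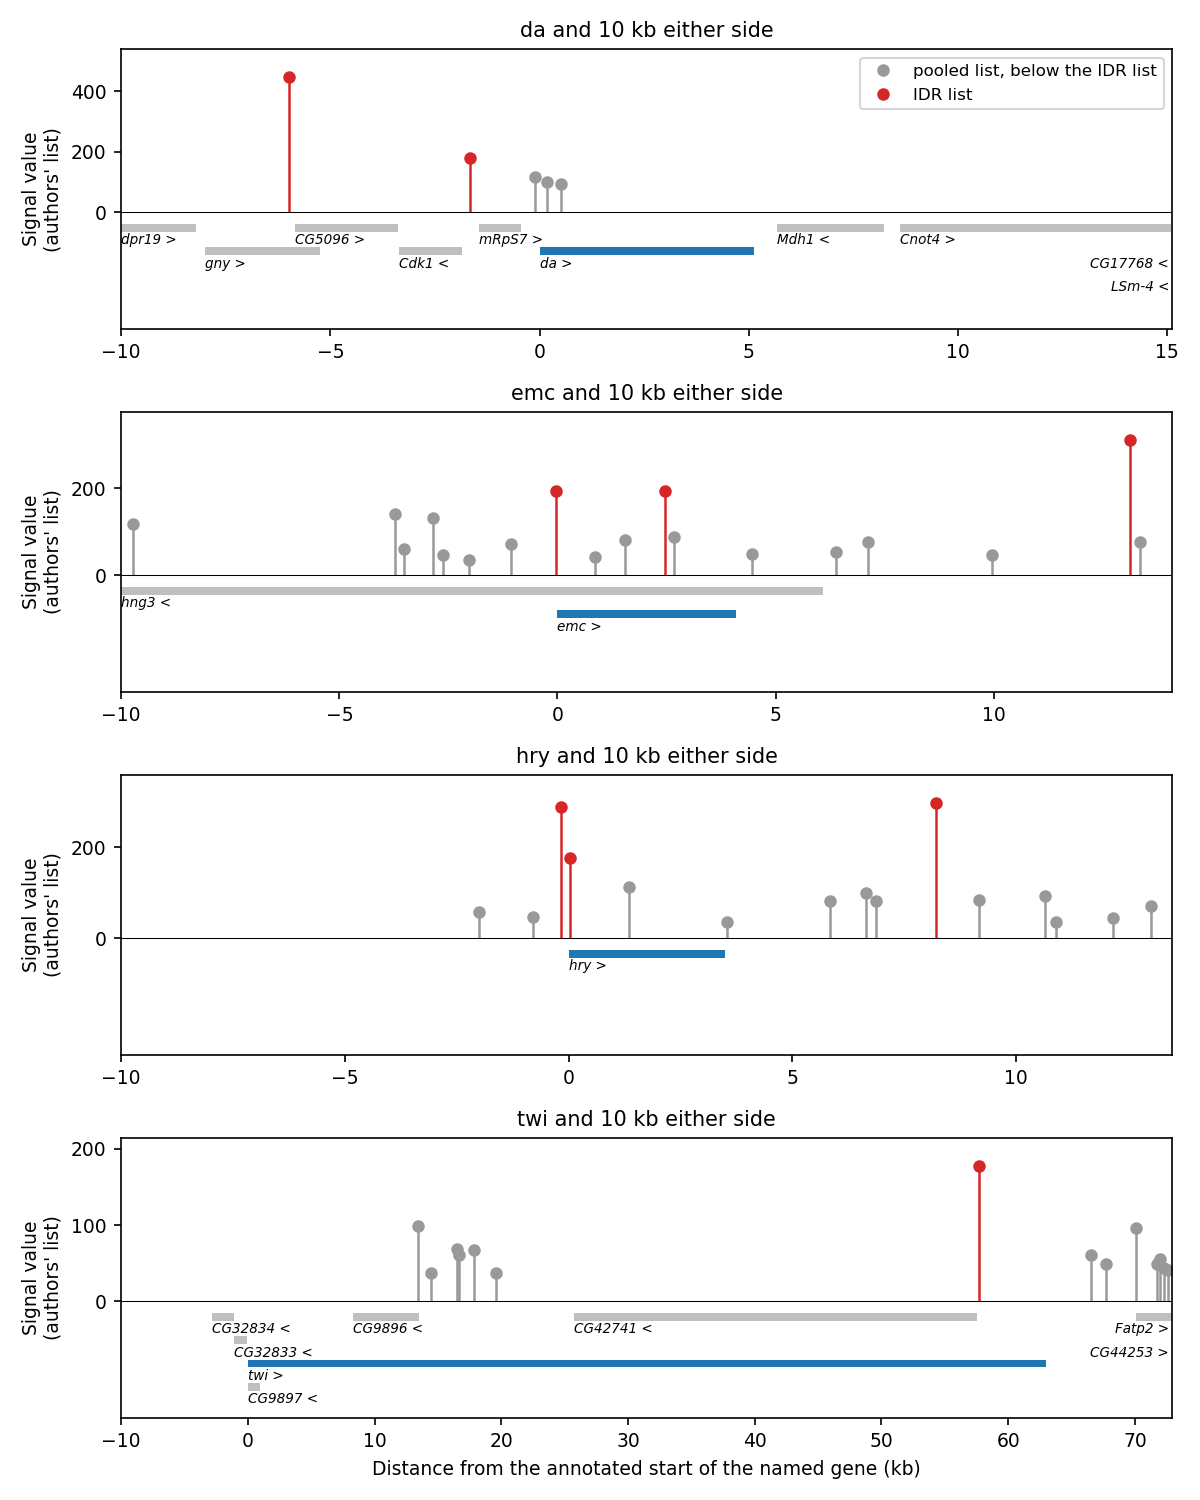
Signal value of each region of the authors' pooled list (y axis, the authors' scale) against the distance of its summit from the annotated start of da, emc, hry or twi (x axis, kb). Red points are the 9 summits of the IDR list and grey points are weaker regions, which may be background. Bars below mark protein-coding genes with the direction of transcription, the named gene in blue. At da the red points stand at neighbouring genes and only grey points at its own start.

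The sequences under these summits are shown because they let the AT-rich stretches near da, the TATA word of the emc promoter and the group of E-boxes 3′ of hry be seen. They are on the plus strand of dm6, from RefSeq's Release 6 genome. Each runs 100 bp either side of the summit, except that bases annotated as UTR are left out and that the stretch at hry runs on to its TSS. E-boxes are in capitals, and in the emc promoter the word TATAAA. The window at the summit 5′ of da nearest to CG5096 lies wholly in a UTR. Only 30 bases of it, around its E-box, are given, and they end before the summit.
da, near CG5096 (chr2L:10382062-10382091): tgtaaaaagattCACTTGcttaaaatatgt
da, between Cdk1 and mRpS7 (chr2L:10386342-10386542): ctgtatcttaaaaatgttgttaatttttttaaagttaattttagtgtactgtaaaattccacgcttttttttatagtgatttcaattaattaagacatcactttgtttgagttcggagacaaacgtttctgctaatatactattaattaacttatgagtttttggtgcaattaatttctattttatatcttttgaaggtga
emc, promoter (chr3L:749272-749399): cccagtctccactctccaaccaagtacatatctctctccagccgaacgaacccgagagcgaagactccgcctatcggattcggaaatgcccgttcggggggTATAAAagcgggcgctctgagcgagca
emc, intron (chr3L:751764-751964): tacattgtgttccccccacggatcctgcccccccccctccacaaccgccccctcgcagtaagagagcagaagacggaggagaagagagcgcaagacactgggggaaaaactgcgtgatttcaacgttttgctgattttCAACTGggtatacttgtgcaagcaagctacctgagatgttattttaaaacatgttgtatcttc
emc, downstream (chr3L:762429-762629): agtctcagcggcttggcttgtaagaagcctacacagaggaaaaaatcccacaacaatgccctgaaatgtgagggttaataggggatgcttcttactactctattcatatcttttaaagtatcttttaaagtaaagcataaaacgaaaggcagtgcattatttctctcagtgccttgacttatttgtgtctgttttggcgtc
hry, promoter (chr3L:8675489-8675758): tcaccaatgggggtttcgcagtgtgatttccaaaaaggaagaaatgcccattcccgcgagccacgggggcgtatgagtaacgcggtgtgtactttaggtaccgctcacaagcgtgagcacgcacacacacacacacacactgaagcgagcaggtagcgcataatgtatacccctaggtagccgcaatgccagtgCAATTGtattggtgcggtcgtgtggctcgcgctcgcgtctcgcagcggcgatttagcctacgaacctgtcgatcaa
hry, downstream (chr3L:8683865-8684065): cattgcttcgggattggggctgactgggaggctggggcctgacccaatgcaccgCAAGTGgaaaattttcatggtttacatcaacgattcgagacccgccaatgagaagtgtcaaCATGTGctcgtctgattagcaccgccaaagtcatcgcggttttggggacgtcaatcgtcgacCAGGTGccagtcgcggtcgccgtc

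At da, the E protein gene (FBgn0267821, 2L, 10388105 to 10393228, plus strand), neither summit lay in the gene. The stronger, in the region 10381977 to 10382232, lay 5990 bp 5′ of the da TSS, in the 3′ UTR of gny and 148 bp from the TSS of CG5096. Its signal value was 445 in the authors' pooled list, rank 617 of 3767. In replicates 1, 2 and 3 its signal values were 153, 147 and 131, and its ranks among 30000 regions were 569, 592 and 1064. It was the strongest summit in any of the 4 windows, and every replicate held it among its own 3767 strongest regions. The weaker, in the region 10386212 to 10386671, lay 1663 bp 5′ of da in the intergenic DNA between Cdk1, a kinase of the cell cycle, and mRpS7, a mitochondrial ribosomal protein gene. Their TSSs were 180 bp and 220 bp away. It had a pooled signal value of 178 (rank 3338), with 61.8 in replicate 1 (rank 3365) and 68.5 in replicate 3 (rank 3655). Replicate 2 listed no summit within 100 bp, and its nearest was 125 bp away.

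The start of da itself carried only regions below the IDR list. The pooled and replicate lists were deposited as peaks and background, so regions this weak may be background. The pooled list held 3 regions nearest to the da TSS, at distances of 100, 177 and 512 bp. Their signal values were 117, 99.2 and 94.6 and their ranks 6584, 8398 and 9000. All were below the lowest signal value of the IDR list, 166. The region 100 bp away ranked 4706 and 15316 in replicates 1 and 2 and was not listed within 100 bp by replicate 3. The region 177 bp away ranked 3586 in replicate 3, ahead of the Cdk1 summit there (rank 3655), and 24819 in replicate 2, and replicate 1 did not list it. The region 512 bp away ranked 15614 and 4986 in replicates 1 and 2 and was not listed by replicate 3. The da window is crowded, with the TSSs of 6 other protein-coding genes. Among the 7304 genes with at least 5 such neighbours, 46.6% had a summit in the window. Without replicate 1 or without replicate 3, when a summit had to be among the 3767 strongest of both other replicates, 1 summit was left at da, and without replicate 2 both were.

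At emc, the Id-type inhibitor gene (FBgn0000575, 3L, 749400 to 753492, plus strand), the summits marked the promoter, the intron and a distal place 3′ of the gene. The promoter summit, in the region 749142 to 749601, lay 28 bp from the TSS, inside an intron of hng3, whose long transcript runs across emc on the other strand. Its signal values were 43.4, 59.8 and 87.3 in replicates 1, 2 and 3, where it ranked 6424, 3694 and 2345. The pooled signal value was 193, rank 2938. The word TATAAA of TATA boxes begins at position -27 from this TSS. It begins between positions -40 and -20, on the gene's own strand, at 6.80% of 19607 protein-coding TSSs, and at none of the annotated TSSs of da, hry or twi.

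The intronic summit of emc, in the region 751634 to 752093, lay 2464 bp from the TSS. Its signal values were 51.9, 54.1 and 111 (ranks 4612, 4471 and 1459), and 195 in the pooled list (rank 2880). Only replicate 3 held it among its 3767 strongest, where the nearest listed summit was 91 bp away. With summits matched within 50 bp, replicate 1 alone (rank 4612) was left. The distal summit, in the intergenic region 762437 to 762636, lay 9037 bp past the end of emc and 13129 bp from its TSS. The nearest protein-coding TSS was that of hng3, 7040 bp away, and a tRNA gene, tRNA:Ile-TAT-1-1, started 6974 bp away. With signal values of 86.2, 98.2 and 138 (ranks 1781, 1383 and 960) and 310 in the pooled list (rank 1223), it was the strongest of the 3 and the one held among the 3767 strongest by every replicate. All 3 summits at emc ranked highest in replicate 3. Without replicate 1 there were 2 summits at emc, and without replicate 2 or without replicate 3 there was 1.

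Weak regions, which may be background, stood in the rest of the emc window. The pooled list held 18 regions there, of which 15 were below the IDR list. The strongest of these, 3735 bp from the emc TSS, had a signal value of 140 and rank 4965, with ranks of 6228, 7662 and 6773 in the replicates. It entered when the 5000 strongest pooled regions were taken, which gave 4 summits at emc. The weak regions 2020 bp and 2665 bp from the TSS had no match within 100 bp in any replicate. The number of weak regions at other genes is not given here.

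At hry, the Hairy repressor gene (FBgn0001168, 3L, 8675759 to 8679253, plus strand), a pair of summits stood at the promoter and another lay 3′ of the gene. No other protein-coding TSS lay in the window, the nearest being that of Pex7, 26118 bp from the promoter summit. Among the 649 genes without a neighbour of this kind, 24.0% had a summit in the window and 4.93% had at least 3. The promoter summits lay 203 bp apart in overlapping regions. The upstream of them, in the region 8675359 to 8675818, lay 170 bp from the TSS, with signal values of 119, 89.2 and 74.1 (ranks 946, 1695 and 3158) and 288 in the pooled list (rank 1379). The other, in the region 8675562 to 8676021, lay 33 bp from the TSS in the 5′ UTR, with signal values of 63.0, 76.3 and 46.1 (ranks 3259, 2324 and 7391) and 177 in the pooled list (rank 3372). In each replicate the upstream summit was the stronger, and replicate 3 gave both their lowest ranks.

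The summit 3′ of hry, in the region 8683735 to 8684194, lay 4712 bp past the end of the gene and 8010 bp from its nearest TSS, that of the shorter transcript. Its signal values were 85.0, 84.1 and 128 (ranks 1824, 1893 and 1118), and 297 in the pooled list (rank 1306). Replicates 1 and 2 ranked the upstream promoter summit ahead of it and replicate 3 ranked it far ahead of both promoter summits, so the order at hry was not the same in all replicates. Without replicate 1 or without replicate 2, 2 summits were counted at hry, and without replicate 3 all 3 were. The pooled list held 12 weaker regions in the window, most of them 3′ of the gene, and the strongest of these (signal value 113, rank 6950) lay in an intron 1156 bp from a hry TSS.

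At twi, the mesoderm gene (FBgn0003900, 2R, 22985374 to 23048325, plus strand), the only summit belonged by distance to another gene. It lay in the region 23042871 to 23043330, 158 bp from the TSS of CG42741. That TSS lies inside the longest transcript of twi. The summit was 3007 bp from the nearest TSS of twi. Its signal values were 48.4, 58.9 and 72.6 (ranks 5257, 3800 and 3271), and 177 in the pooled list (rank 3383). Its sequence is not shown. It was the lowest-ranked of the 9 summits in the IDR list, and only replicate 3 held it among its 3767 strongest. When any of the 3 replicates was left out, 0 summits met the condition at twi.

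The extent of twi rests on 1 of its 3 transcripts, which starts far 5′ of the others and makes the gene 62952 bp long. The other 2 span 23046108 to 23048325, or 2218 bp, and a window around these held the same count of 1 summit. With 5 kb either side of them the count was also 1, but with 2 kb upstream and in the gene body alone it was 0. On the long model the summit was intronic, and on the short one it was upstream of the gene. None of the 14 regions of the pooled list in the long window was nearest to a TSS of twi. The stronger of those below the IDR list stood 65 bp from the TSS of CG9896 (signal value 98.4, rank 8517) and 5 bp from that of Fatp2 (signal value 95.9, rank 8827).

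Across the 4 genes, the replicates gave a loose order of the summits. The mean ranks were 742 ± 279 for the summit of da near CG5096, 1375 ± 411 for the distal one of emc, 1612 ± 429 for the 3′ one of hry and 1933 ± 1125 for its upstream promoter summit (SD, n = 3). Next came the summit of da at Cdk1 with 3510 ± 205 (SD, n = 2), the intronic one of emc with 3514 ± 1781 and that of twi with 4109 ± 1029 (SD, n = 3). The promoter summit of emc with 4154 ± 2078 and the downstream promoter summit of hry with 4325 ± 2696 were last (SD, n = 3). The last place of the latter rests on replicate 3, without which its mean rank was 2792. Ranges over replicates overlapped between all neighbours in this order but the fourth and the fifth, where the fifth has 2 values. Its place depends on the limit for matching, as within 250 bp replicate 2 entered and its mean rank was 4105. Ranges of summits farther apart overlapped too, and in replicate 3 the intronic and promoter summits of emc (ranks 1459 and 2345) came ahead of the upstream promoter summit of hry (rank 3158). Of the 9 summits, 4 were among the 3767 strongest of every replicate, or 44.4%, beside 51.5% of the whole IDR list. The IDR ranks of the 9 ran from 617 to 3383 with a median of 2880, and 4 were in the stronger 1883 regions.

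**Figure D2:**
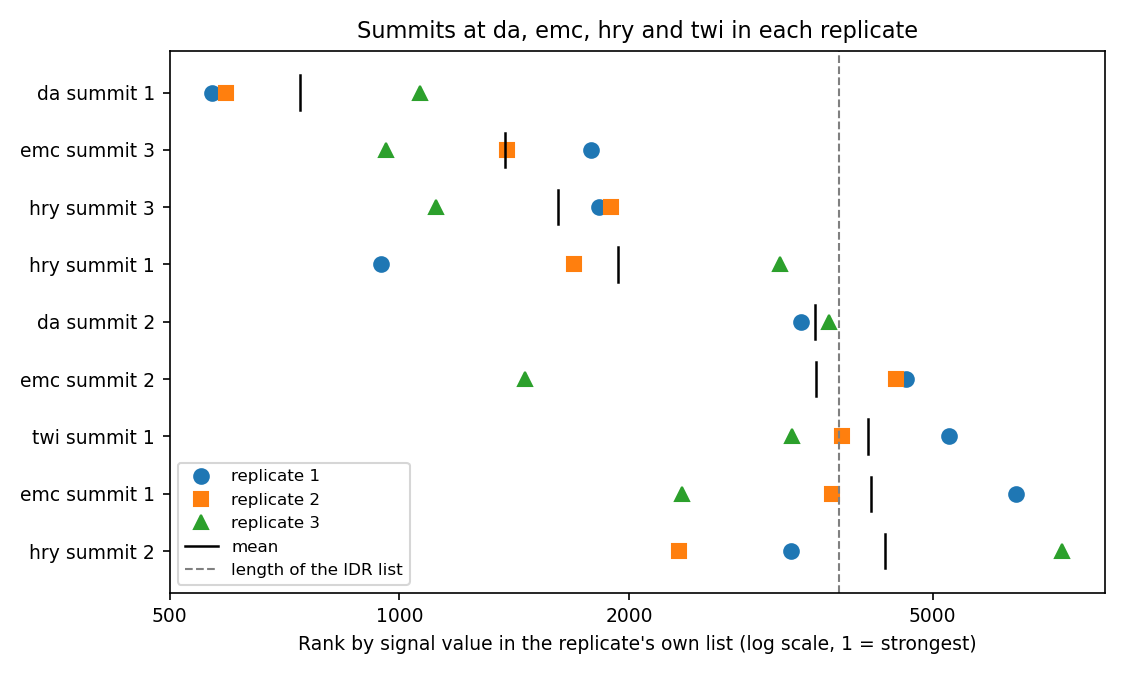
Rank of each of the 9 summits in each replicate's own list (x axis, log scale, 1 is the strongest), ordered by mean rank (black bars) and numbered within each gene from the lowest to the highest coordinate. The dashed line is at 3767, the length of the IDR list. The 4 summits at the top lie left of the line in every replicate, and replicate 3 is the leftmost for the 3 summits of emc.

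The share of these summits with an E-box was near that of the whole list. The 10 distinct words of the form CANNTG were searched on both strands, each word counted with its reverse complement. No E-box at these summits overlapped another. Within 100 bp, 5 of 9 summits (55.6%) held at least 1, beside 66.0% of all IDR summits and 65.5% of 6946 windows 1000 bp to their sides. Within 50 bp it was 3 of 9 beside 41.9% of all IDR summits, and within 250 bp 9 of 9 beside 93.8%. The richest was the summit 3′ of hry, with CAAGTG beginning at position -46 from the summit, CACATG (read as CATGTG) at 15 and CACCTG (read as CAGGTG) at 77. Taken singly, these words were in 13.3%, 9.61% and 6.53% of all IDR windows, which held a median of 1 E-box. The share of windows with at least 3 E-boxes is not given here. The other summits with an E-box held 1 each, CAAGTG (read as CACTTG) at the summit of da near CG5096, CAACTG at the intronic summit of emc, CAATTG at the upstream promoter summit of hry and CAAATG at twi.

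CAGCTG, the word bound by MyoD, was in 15.1% of all IDR windows and in 8.59% of the side windows, and it was within 100 bp of 0 of these 9 summits. By a rough bound of 3 divided by the number of summits, 0 in 9 allows a share of up to 33.3%. The number of summits is thus too small to set the share here below the whole list. Within 50 bp it was also at 0 of 9, beside 8.73% of all IDR summits. Within 250 bp it was found at the intronic and the distal summit of emc, 2 of 9 beside 29.7%. The GC content of the windows differed between the genes. Those of da had 27.9% near CG5096 and 24.4% at Cdk1, below the median of 37.8% over all IDR windows. The other 7 were above it, with 53.7% at the promoter summit of emc, 49.8% at the intronic and 39.3% at the distal one, and with 53.2%, 51.7% and 55.7% at the upstream promoter, downstream promoter and 3′ summits of hry. The summit at twi, near the TSS of a neighbour as those of da are, had 53.2%.

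The nau gene resembled da in that no summit was nearest to its own TSS. Its window (3R, gene 23712814 to 23718357) held 7 summits, and the strongest (signal value 432, rank 652) lay 329 bp from the TSS of CG10365. Unlike at da, 1 summit lay in the gene, in an intron (signal value 419, rank 684, ranks 597, 994 and 774 in the replicates). The TSS nearest to that summit was that of CG10300, 2542 bp away. The strongest region nearest to the nau TSS was 1607 bp away with a signal value of 113 and rank 6965. Of the 5 genes, nau had the most summits and twi the fewest.

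**Figure D3:**
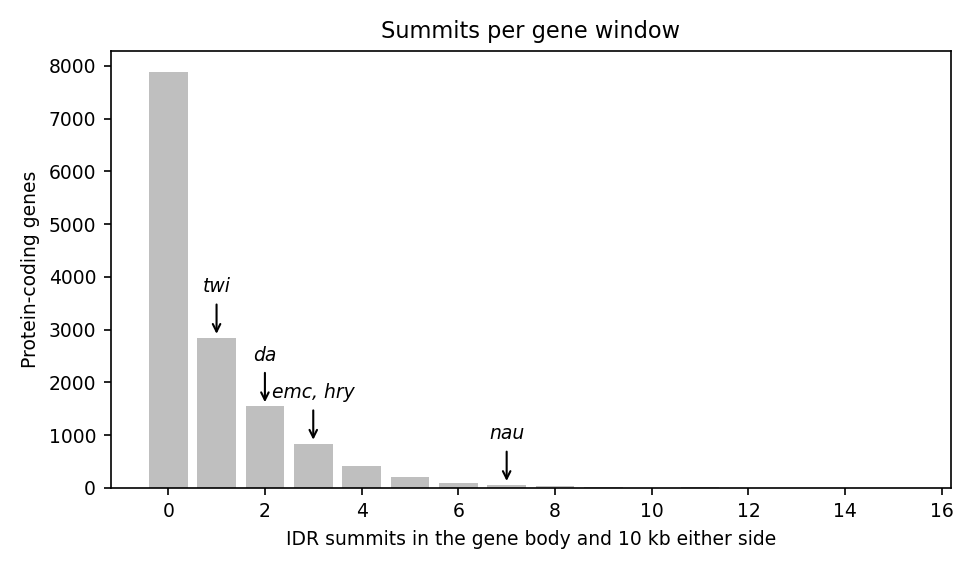
Number of protein-coding genes (y axis) by the number of IDR summits in the gene body and 10 kb either side (x axis). Arrows mark twi with 1, da with 2, emc and hry with 3 and nau with 7, where 7890 genes have 0.

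Among the other bHLH genes and Groucho, set out by textbook class, 32 of 53 had a summit in the window (60.4%), beside 43.4% of all protein-coding genes. The classes were also set with earlier results known. No test of this difference was made, and the median length of these genes was 3.07 kb against 2.17 kb over all genes. With the 4 genes included the count was 36 of 57. It was 27, 29 and 29 without replicates 1, 2 and 3, when 33.6%, 34.4% and 33.3% of all genes had a summit. The classes differed in their counts. Proneural genes gave 2 of 9, led by amos (rank 104, but 94 bp from the TSS of CG10413) and ac (rank 3763, 5833 bp from the TSS of y). Of the mesodermal genes nau and twi had summits, while Hand and HLH54F, which act in the heart and the visceral mesoderm, had none. The other tissue-restricted factors gave 3 of 9, namely net (rank 561), Fer1 (rank 621) and tx (rank 2091). The strongest summit at net was nearest to the TSS of CG11374, 5000 bp away, and that at Fer1 to the TSS of CG10068, 104 bp away.

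The family of hry gave more. Hairy and Enhancer of split repressors had a summit in 10 of 12 cases, but 5 of 12 had one nearest to their own TSS, and neighbouring genes of the complex share summits, with 20 in sum and 14 distinct. The strongest in this class (signal value 637, rank 296, ranks 418, 272 and 302 in the replicates) lay 407 bp from the TSS of E(spl)m3-HLH and fell also in the window of E(spl)m5-HLH. That of E(spl)m7-HLH ranked 819. The 3 summits of gro, the corepressor gene of Hairy-type factors, were all nearest to other genes, and the strongest (rank 202) lay 36 bp from the TSS of RpL34a. The bHLH-PAS genes gave 8 of 11, led by gce (rank 110), sim (rank 117) and sima (rank 347). The leucine zipper genes gave 8 of 9, led by crp (rank 271, 7472 bp from the TSS of CG4935), bigmax (rank 337, 202 bp from the TSS of mrt) and Mnt (rank 1042). These last classes hold long genes, with medians of 21.3 kb and 18.5 kb, and long genes have longer windows.

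**Figure D4:**
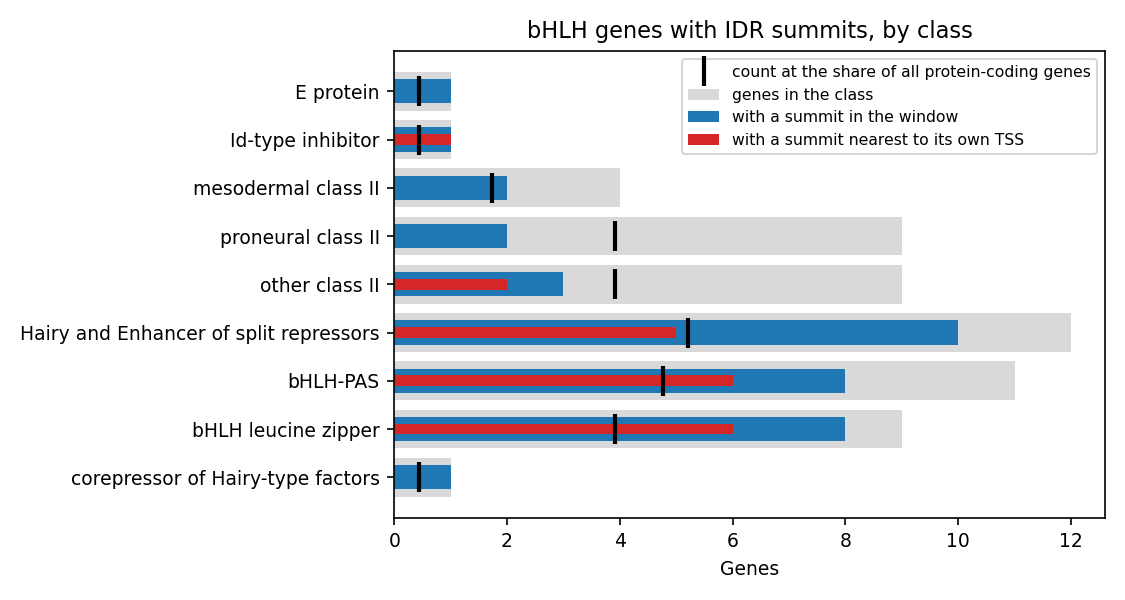
Number of genes in each class (grey), with a summit in the gene body and 10 kb either side (blue) and with a summit nearest to their own TSS (red). Black ticks mark the count that 43.4%, the share of all protein-coding genes, would give, with no allowance for gene length. The proneural class has 2 of 9 genes with a summit and the Hairy and Enhancer of split class 10 of 12.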

How the data were processed

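The authors deposited region lists of the narrowPeak layout on dm6 and dm3. The dm6 lists were used: 30000 regions for each of 3 replicates, 30000 from the pooled replicates and 3767 thresholded by IDR. The lists of 30000 were deposited as peaks and background for input to IDR. Controls were used, per the deposited read-me files. The antibody is named anti-GFP in the description and nau in the label, and the description was followed. The sources used here name no aligner, peak caller or IDR cutoff, and read depth is unknown. The signal value is a score the authors deposited, on a scale not named, and it serves to rank regions within a list. The deposited -log10 q value was not used.

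The IDR list equalled the 3767 strongest pooled regions. Its 28 entries that repeat an interval were kept. A summit (region start plus the deposited offset) was matched to a replicate's strongest summit within 100 bp. Distances are to TSSs of protein-coding transcripts (BDGP6.54). The dm3 lists were not analysed here, and no coordinates were converted between builds. The genes and lists were chosen with earlier results of these data known. Named genes were the 4 members, nau, the genes with the nearest TSS and up to 3 genes per class with the strongest summits. Counts carry no test, because 4 named genes were set against all genes. The counting was tested on simulated data, where 200 of 200 genes with a planted summit were recovered over 13945 genes. Python 3.11.15, numpy 2.4.6 and pandas 2.3.3 were used.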

Additional observations from a re-analysis of the deposited data

How the results depend on the processing

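The counts at da, emc and hry and the presence of a summit at da and twi depended on the processing. At emc and at hry at least 1 summit was found under each setting tried. With 5 kb flanks or with the gene body and 2 kb upstream, da had 1 summit. In gene bodies alone da had 0, emc 1 and hry 1. Without its longest transcript, an alternative added after the data were seen, twi had 0 with 2 kb upstream and 0 in the gene body. In the stronger 1883 regions da had 1, emc 1 and twi 0. Over all genes with a summit, 6055 became 2497 with 2 kb upstream and 1408 in gene bodies, and the 36 genes of the bHLH lists became 23 and 17. Leaving out each replicate gave 1 to 2 summits at da, 1 to 2 at emc, 2 to 3 at hry and 0 at twi, so 3 of the 4 genes had a summit each time. This condition asks for the 3767 strongest of both other replicates and is stricter than the IDR list by construction. With 250 bp as the limit for the same summit, the mean rank of the summit of da at Cdk1 was 4105 instead of 3510, because replicate 2 then entered, and that of the downstream promoter summit of hry was 1933 instead of 4325, because the limit then reaches the upstream summit. With 50 bp that of the intronic summit of emc was 4612 instead of 3514, from replicate 1 alone. At 50 bp either side 3 of the 9 summits held an E-box and at 250 bp 9 did, beside 41.9% and 93.8% of all IDR summits, and CAGCTG was at 2 within 250 bp, beside 29.7%. The background share of CAGCTG was 8.59% in side windows instead of 15.1%. The number of summits nearest to their own gene was 5 with TSSs of every gene type and with gene-level starts alike. The word TATCGATA of core promoters, added after the data were seen, was at 0 of 9 summits, beside 1.59% of all IDR windows. No paired analysis was possible because the study has 1 group. Read depth is unknown, so its effect on the weak summits was not tested.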
